A study of Mus musculus with 2 samples.

Results

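The miR-181 family of the mouse is encoded by 6 microRNA genes in 3 clusters of 2 genes each, and it was described here in skeletal muscle. The members were the rows for Mir181a-1, Mir181b-1, Mir181a-2, Mir181b-2, Mir181c and Mir181d, found by Ensembl identifier in the GENCODE M21 annotation, 6 of 2202 microRNA genes in each table. The tissue was the gastrocnemius of the calf, taken at 36 days of age from male B6CASTF1/J mice, the first cross of C57BL/6J with the wild-derived CAST strain. Both libraries belong to 1 group, with no treatment or mutation named. Their labels describe different males, although both carry 1 donor identifier, and replicates 1 and 2 are treated as different animals.

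A microRNA is cut from a hairpin in its primary transcript, and either arm of the hairpin (5p or 3p) can be loaded into the silencing complex. Bases 2 to 8 of the loaded strand, the seed, pair with target messenger RNAs, so microRNAs with the same seed can share targets. In the mouse, miR-181a is best known for setting the sensitivity of the T cell receptor in developing thymocytes. The family is also known to rise when mouse myoblasts differentiate, where it represses the homeobox factor Hoxa11, and miR-181b is known to dampen inflammatory signalling in endothelium.

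The mature sequences are shown first because they decide which gene a read can be assigned to. They are RefSeq sequences on GRCm38.p6, written 5′ to 3′ with the seed in capitals. The 5p arms are these.
miR-181a-5p (Mir181a-1 and Mir181a-2): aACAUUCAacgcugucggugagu
miR-181b-5p (Mir181b-1 and Mir181b-2): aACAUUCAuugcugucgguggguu
miR-181c-5p (Mir181c): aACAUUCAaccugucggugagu
miR-181d-5p (Mir181d): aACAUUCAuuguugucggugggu

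All 6 genes carry the same 5p seed, and the 4 mature sequences above were the only ones with it in the RefSeq table of 1674 mouse mature sequences. Counting from 1 at the 5′ end of the first sequence named, miR-181a-5p and miR-181b-5p differ by A9U, C10U and A21G and by 1 base in length. The miR-181c-5p sequence equals miR-181a-5p with the base at position 11 left out. The miR-181d-5p sequence differs from miR-181b-5p by C12U and lacks its last base. Only the a and b forms are encoded at 2 genes, and 54 of the 1674 mature sequences (3.23%) were listed at more than 1 gene in that table.

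The 3p arms are shown because, unlike the 5p arms, they tell the duplicated genes apart.
miR-181a-1-3p (Mir181a-1): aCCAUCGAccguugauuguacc
miR-181a-2-3p (Mir181a-2): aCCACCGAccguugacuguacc
miR-181c-3p (Mir181c): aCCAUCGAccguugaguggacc
miR-181b-1-3p (Mir181b-1): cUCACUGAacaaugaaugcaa
miR-181b-2-3p (Mir181b-2): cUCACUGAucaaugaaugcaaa

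The 3p arms of Mir181a-1 and Mir181a-2 differ by U5C and U16C, and the first of these lies in the seed. The arm of Mir181a-1 shares its seed with that of Mir181c, from which it differs by U16G and U19G. The 3p arms of Mir181b-1 and Mir181b-2 share a seed and differ by A9U and by 1 base in length. No other mouse microRNA in the RefSeq table had any of these 3 seeds.

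The clusters lie on 3 chromosomes of mm10. Mir181a-1 (ENSMUSG00000065565.1) is on the plus strand of chromosome 1, spanning 137966455 to 137966541, and Mir181b-1 (ENSMUSG00000065458.1) follows from 137966639 to 137966718, 97 bases downstream. Both are within an intron of the noncoding gene Gm4258, and Mir181b-1 is also within an exon of the noncoding gene A430106G13Rik, which overlaps the last 11 bases of Mir181a-1. Mir181a-2 (ENSMUSG00000065423.1) is on the plus strand of chromosome 2, spanning 38852735 to 38852810, and Mir181b-2 (ENSMUSG00000065578.1) from 38853830 to 38853918, 1019 bases further on. They have no host gene on their own strand in GENCODE M21 and lie opposite an intron of Nr6a1, a nuclear receptor gene of germ cells. Mir181b-2 also lies opposite an exon of the unclassified gene Gm44144. Mir181c (ENSMUSG00000065483.2, 84178873 to 84178961) and Mir181d (ENSMUSG00000076338.1, 84178716 to 84178787) are 85 bases apart on the minus strand of chromosome 8, within an intron of Nanos3, which encodes a germ cell RNA-binding protein.

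The hairpins share sequence in a way that bears on every count below. Each hairpin was read in windows of 18 bases and compared with the 2202 annotated hairpins on both strands. In Mir181c and Mir181d no window was found in another hairpin. Mir181c does share a stretch of 17 bases, just under the window length, with Mir181a-1 and another of 17 bases with Mir181a-2. In Mir181a-1 and Mir181a-2 a stretch of 28 bases is identical, and it covers the whole 5p arm with 1 base before it and 4 after it. In Mir181b-1 and Mir181b-2 a stretch of 26 bases is identical, and it runs from 2 bases before the 5p arm to its last base. The next base is G in Mir181b-1 and U in Mir181b-2. All windows within the 3p arms of the 6 genes were found in no other hairpin. Of the 2202 hairpins, 1023 (46.5%) shared no window with another.

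**Figure D1:**
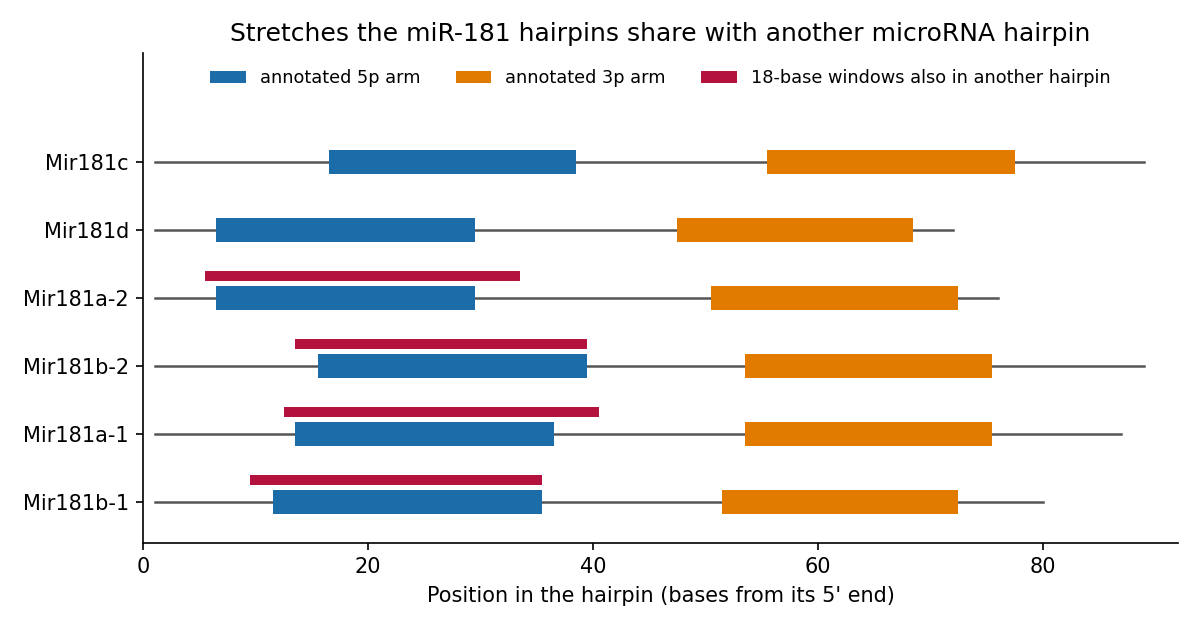
Map of the 6 miR-181 hairpins, with position in bases from the hairpin's 5′ end on the x axis. Blue and orange bars are the annotated 5p and 3p arms, and red bars span the 18-base windows that also occur in another microRNA hairpin. The red bars cover the 5p arms of the 4 duplicated genes, 28 bases for Mir181a-1 and Mir181a-2 and 26 for Mir181b-1 and Mir181b-2, and neither Mir181c nor Mir181d has one.

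The libraries held 4134880 reads counted on the strand of a microRNA gene in replicate 1 and 3219740 in replicate 2. Reads aligned to several loci made up 70.4% of the total in replicate 1 and 73.3% in replicate 2. The layout of the tables is one in which such reads are added to no gene, and the counts are taken to follow it. The counts are not divided by arm. For the a and b genes they therefore hold reads of the 3p arm or reads that reach past the shared stretch, while for Mir181c and Mir181d reads of both arms can be counted. In this bulk tissue, fewer cells of a type and less RNA per cell cannot be told apart.

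Together the 6 genes held 7232 counted reads in replicate 1 and 5030 in replicate 2. That is 0.175% of counted reads in replicate 1, with an exact 95% Clopper-Pearson interval of 0.171 to 0.179, and 0.156% in replicate 2, with 0.152 to 0.161, a mean of 0.166% ± 0.0132 (SD, n = 2). These intervals and all others reflect counting alone and leave out variation between animals. They treat each read as a separate molecule, so they can be too narrow where reads were copied by PCR. The family count equalled 0.0521% of the reads aligned to several loci in replicate 1 and 0.0410% in replicate 2, and how many of those reads were miR-181a-5p or miR-181b-5p was not tested.

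Levels are in CPM, counts scaled to 1000000 counted reads per library. By counted reads Mir181c was the highest member, with 2523 counts (610.2 CPM) in replicate 1 and 1766 (548 CPM) in replicate 2, a mean of 579 ± 43.6 CPM (SD, n = 2). Mir181b-2 came next, with 2179 counts (527 CPM) and 1606 (499 CPM), a mean of 513 ± 19.9 CPM. These genes stood in places 81 and 87 by mean CPM among the 639 microRNA genes with any count.

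Mir181d had 1398 counts (338 CPM) in replicate 1 and 845 (262 CPM) in replicate 2, a mean of 300.3 ± 53.5 CPM and place 111. Mir181a-1 had 919 counts (222 CPM) and 572 (178 CPM), a mean of 200.0 ± 31.5 CPM and place 131. In both genes, as in every member but Mir181a-2, the CPM was lower in replicate 2. In each library Mir181d exceeded Mir181a-1.

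Mir181a-2 was lower again, with 199 counts (48.1 CPM) in replicate 1 and 238 (73.9 CPM) in replicate 2, a mean of 61.0 ± 18.2 CPM and place 186. It was the only member with more counts in the shallower library. Mir181b-1 was close to the limit of detection, with 14 counts (3.39 CPM) and 3 counts (0.932 CPM), a mean of 2.16 ± 1.74 CPM and place 327. The limit that a count of 0 allows is 3 counts, or 0.726 CPM for replicate 1 and 0.932 CPM for replicate 2, which Mir181b-1 just reached in replicate 2.

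The order was the same in both libraries, namely Mir181c, Mir181b-2, Mir181d, Mir181a-1, Mir181a-2 and Mir181b-1, and the values of neighbours in this order did not overlap between libraries. The order is a description, since 2 libraries let an exact permutation test reach p = 0.5 at the lowest. Mir181c and Mir181b-2 were the closest, with values of 548 to 610.2 CPM and 499 to 527 CPM. On the opposite strand all 6 genes had 0 counts in both libraries.

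**Figure D2:**
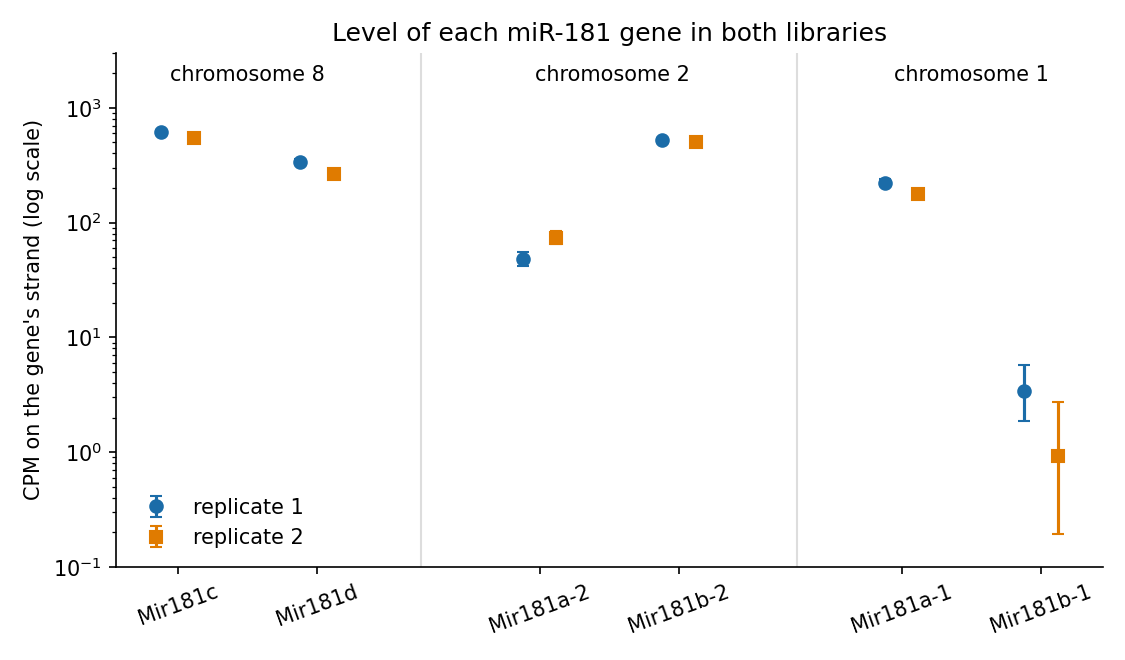
Level of each miR-181 gene as CPM on a log axis, grouped by cluster, with replicate 1 as circles and replicate 2 as squares. Bars are exact 95% intervals for counting error in each library. Mir181c, Mir181b-2, Mir181d and Mir181a-1 sit between 178 and 610.2 CPM, Mir181a-2 at 48.1 and 73.9 CPM, and Mir181b-1 at 3.39 and 0.932 CPM.

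The clusters were compared next by their share of the family count. The Mir181c and Mir181d cluster held 54.2% in replicate 1 (exact 95% interval 53.1 to 55.4) and 51.9% in replicate 2 (50.5 to 53.3), a mean of 53.1% ± 1.63 (SD, n = 2). The Mir181a-2 and Mir181b-2 cluster held 32.9% (31.8 to 34.0) and 36.7% (35.3 to 38.0), a mean of 34.8% ± 2.67. The Mir181a-1 and Mir181b-1 cluster held 12.9% (12.1 to 13.7) and 11.4% (10.6 to 12.3), a mean of 12.2% ± 1.04. The chromosome 8 cluster thus had the most counted reads in both animals, but it is also the cluster whose 5p arms can be counted.

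As log2 ratios of counts + 0.5, the chromosome 8 cluster exceeded the chromosome 2 cluster by 0.61 ± 0.16 (SD, n = 2), or 1.53-fold, and the chromosome 1 cluster by 2.13 ± 0.08, or 4.37-fold. The chromosome 2 cluster exceeded the chromosome 1 cluster by 1.51 ± 0.23, or 2.86-fold. Each difference was larger than its SD. An exact two-sided sign-flip permutation test gave p = 0.5 for each, which is the smallest value that 2 libraries allow.

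Within the clusters, the a member was not always the higher one. Mir181a-1 exceeded its neighbour Mir181b-1, with 919 against 14 counts in replicate 1 and 572 against 3 in replicate 2. The ratio was 65.6-fold in replicate 1 (exact 95% counting interval 38.9 to 121) and 191-fold in replicate 2 (64.9 to 927), with a mean log2 ratio of 6.67 ± 0.97 (n = 2). On chromosome 2 the order was the opposite. Mir181a-2 was 10.9-fold below Mir181b-2 in replicate 1 (9.47 to 12.7) and 6.75-fold below it in replicate 2 (5.89 to 7.76), a mean log2 ratio of −3.10 ± 0.49.

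The chromosome 8 partners were the closest in level. Mir181c exceeded Mir181d 1.80-fold in replicate 1 (1.69 to 1.93) and 2.09-fold in replicate 2 (1.92 to 2.27), a mean log2 ratio of 0.96 ± 0.15. Here neither gene shares a window with another hairpin, so the ratio can rest on reads of both arms. The exact two-sided sign-flip p was again 0.5 for each of the 3 pairs.

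These ratios were set beside those of all 112 pairs of adjacent microRNA genes on 1 strand within 10 kb, with at least 10 summed counts in each gene. All 3 miR-181 pairs kept their direction in both libraries, as did 107 of the 112 pairs (95.5%). The median absolute log2 ratio of the 112 pairs was 2.36, and 89 pairs (79.5%) differed by more than 2-fold. Of all pairs, 17.9% had a smaller ratio than Mir181c and Mir181d, 61.6% a smaller one than Mir181a-2 and Mir181b-2, and 92.9% a smaller one than Mir181a-1 and Mir181b-1. In 52 of the pairs neither hairpin shared a window, a restriction chosen after the values were seen, and 11 of these had a smaller ratio than Mir181c and Mir181d. Large differences between neighbours were thus common in these tables.

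**Figure D3:**
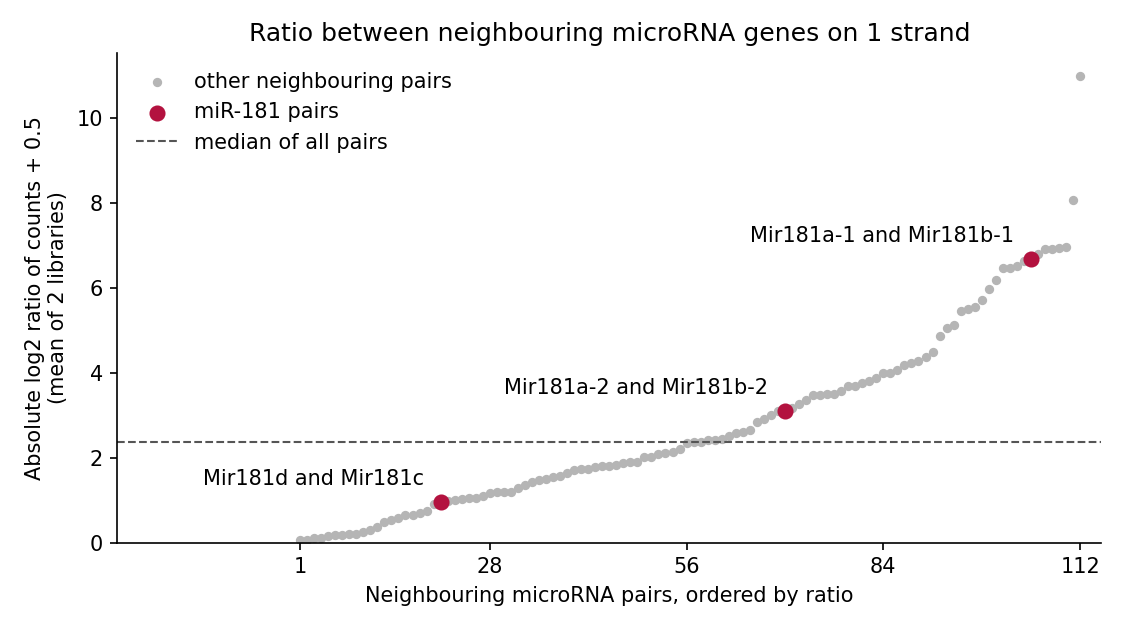
Absolute log2 ratio of counts + 0.5 between adjacent microRNA genes, averaged over 2 libraries, for 112 pairs ordered from the smallest to the largest ratio. Red points are the 3 miR-181 pairs, grey points the other pairs, and the dashed line is the median of 2.36. The pair of Mir181c and Mir181d lies at 0.96, that of Mir181a-2 and Mir181b-2 at 3.10 and that of Mir181a-1 and Mir181b-1 at 6.67.

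The duplicated genes were also compared with each other, since they encode the same 5p arm. Mir181a-1 exceeded Mir181a-2 4.62-fold in replicate 1 (exact 95% counting interval 3.96 to 5.41) and 2.40-fold in replicate 2 (2.06 to 2.81), a mean log2 ratio of 1.73 ± 0.67 (SD, n = 2). Mir181b-2 exceeded Mir181b-1 by 8.04 ± 1.14 on the log2 scale, 156-fold in replicate 1 (92.6 to 285) and 535-fold in replicate 2 (183 to 2599). The gene that led was thus on chromosome 1 for the a form and on chromosome 2 for the b form. Reads within the shared stretches are in neither count, so these ratios do not give the share of mature miR-181a-5p or miR-181b-5p that each gene makes. In the b genes the hairpins differ from the first base after the 5p arm, whereas in the a genes 4 further bases are the same.

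Pairs of genes listed with an identical mature arm in the RefSeq table were also compared, a choice made after the values were seen. Among the 21 with at least 100 summed counts, the median absolute log2 ratio was 2.38. Of these pairs, 38.1% had a smaller ratio than Mir181a-1 and Mir181a-2, and 85.7% had a smaller one than Mir181b-1 and Mir181b-2. The list need not hold every duplicated pair, and Mir1a-1 with Mir1a-2 was not among the 21.

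The difference between the 2 animals was described as a log2 ratio of replicate 2 over replicate 1, on CPM + 1 after TMM scaling. It rests on 1 library per side and has no replicate check. Of the 6 members, 5 had a mean of at least 10 CPM, and only Mir181a-2 was past 1.2-fold, 1 of 5 members against 106 of 261 genes (40.6%). None of these 5 members was past 2-fold, against 14 of 261 genes (5.36%). Mir181a-2 was higher in replicate 2 with a log2 ratio of 0.77. Without a pseudocount that is 1.72-fold, with an exact 95% counting interval of 1.42 to 2.09. Of the 261 genes, 5 (1.92%), Mir181a-2 included, were higher by 1.5-fold or more, and 2 had a larger ratio than Mir181a-2. The 1.5-fold cut was not among the planned thresholds, and both counts leave out genes lower in replicate 2. The 14 genes past 2-fold in either direction all differed by more than Mir181a-2, which follows from that cut. Further genes short of 2-fold also differed by more, most of them lower in replicate 2, with log2 ratios of −0.83 to −0.98.

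The other 4 members were within 1.2-fold under TMM scaling. Mir181d was lower in replicate 2 at −0.20 and Mir181a-1 at −0.16, while Mir181b-2 stood at 0.09 and Mir181c at 0.01. Under total-count scaling, which moves the median of all 261 genes to −0.21 from −0.05, Mir181d stood at −0.36 and Mir181a-1 at −0.32, both then past 1.2-fold. With Mir181a-2 at 0.61, 3 of 5 members were then past it, against 121 of the 261 genes. Mir181b-2 and Mir181c turned to −0.08 and −0.15 under that scaling. The median of the 5 members was 0.01. The median absolute ratio of all 261 genes was 0.18. Mir181b-1, below the minimum, had 14 counts in replicate 1 and 3 in replicate 2, a fold of 0.309 whose counting interval, 0.0569 to 1.11, includes 1.

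**Figure D4:**
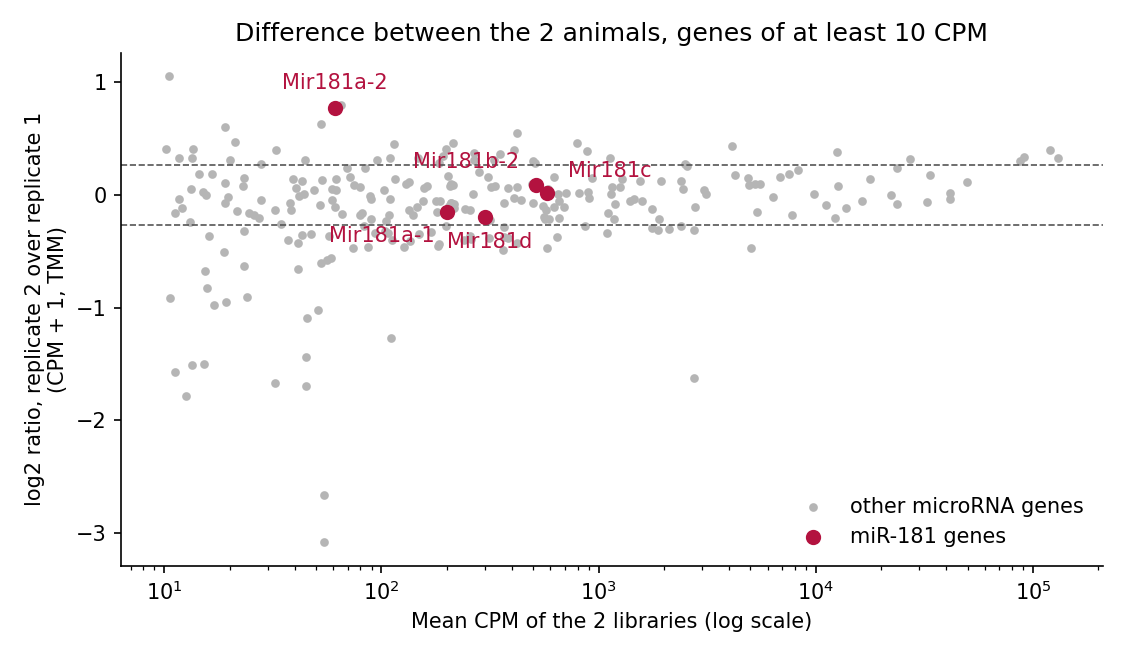
Log2 ratio of replicate 2 over replicate 1 (CPM + 1, TMM) against mean CPM on a log axis for 261 genes of at least 10 CPM, with miR-181 genes in red. Dashed lines mark 1.2-fold. Mir181a-2 lies at 0.77 above the upper line, and the other 4 members lie between −0.20 and 0.09.

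Marker lists gave the tissue context. All 10 striated muscle microRNAs had at least 10 counts in both libraries, and Mir206 had the most counted reads among them. Together they held 2.74% of counted reads in replicate 1 and 3.04% in replicate 2. Under the counting rule adopted above, a read that matches several loci adds to none of these list shares. Mir1a-2 had a mean of 331 CPM, Mir133a-1 24.5, Mir1a-1 13.6 and Mir133a-2 3.28 CPM. How many of their reads went uncounted, and whether these would change the order of genes or lists, was not tested. The family's 0.166% was below the 0.238% ± 0.00696 of 5 leukocyte microRNAs (Mir155, Mir150, Mir146, Mir223 and Mir142), which held 0.233% in replicate 1 and 0.242% in replicate 2. It was far below the endothelial Mir126a alone, at 8.54% in replicate 1 and 9.58% in replicate 2. The family's share leaves out reads within the shared stretches of the a and b genes. Where the family would stand with those reads was not tested. As a share of counted reads the family was lower in replicate 2 while the sums of these 3 lists were higher, but under TMM scaling the family had a log2 ratio of 0.00. Not all list members moved with their sum. In replicate 2, Mir223 was at 300.3 CPM against 436 CPM in replicate 1, Mir142 at 199.7 against 212 CPM, and Mir133a-1 at 21.7 against 27.3 CPM. The part of these cells in the miR-181 levels was not tested.

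By distance of log2(CPM + 1) over the 2 libraries, the genes most like Mir181c in level were Mir351 (582 ± 33.1 CPM) and Mir433 (575 ± 84.3 CPM). For Mir181b-2 they were Mir1839 and Mir324, for Mir181d Mir493 and Mir152, and for Mir181a-1 Mir300 and Mir136. For Mir181a-2 they were Mir378d (64.9 ± 20.3 CPM) and Mir185 (52.9 ± 12.2 CPM), both also higher in replicate 2. For Mir181b-1 they were Gm26117 and Mir7083, with 3 counts each in replicate 2. The genes were picked by these same values, so a shared direction or count follows from the choice. Over 2 libraries this likeness covers little more than the level.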

How the data were processed

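MicroRNAs were sequenced from gastrocnemius total RNA of 2 mice, with 1 library each. The authors deposited raw counts per microRNA gene for each library, with no normalization. They used mm10 with GENCODE M21, per the deposited file descriptions. An aligner or counter is not given in the sources used here. Every table gives counts that ignore strand, on the gene's strand (used here) and on the opposite strand. The 4 rows without a gene were left out of library sizes. Of all reads, 7.05% were unmapped and 1.63% outside genes in replicate 1, and 6.02% and 1.51% in replicate 2.

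CPM, shares and exact intervals were computed with scipy 1.17.1 and a pseudocount of 0.5 counts in ratios within a library. TMM factors (1.06 and 0.944) came from edgeR 4.0.16, size factors from DESeq2 1.42.0, and ratios between animals used CPM + 1 and a minimum mean of 10 CPM. That step was tested on simulated data with counting error only. The simulation held no variation between animals, so it says nothing on that variation. With 1 group there is no test between conditions. Mature sequences came from RefSeq (GRCm38.p6), where all 6 members had both arms, and hairpins from GENCODE M21 transcripts. Matches to the whole genome and CAST alleles, which can lower counts, were not analysed here.

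Members and lists were chosen with earlier results of these data known. Genes named were the 6 members, the 2 nearest in level to each, host genes, and members of the marker lists. Alternatives were other library sizes, scalings, pseudocounts, minimums, distances, the column ignoring strand, and leaving out each replicate.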

Additional observations from a re-analysis of the deposited data

How the results depend on the processing

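The share of the family moved with the denominator, to 0.190% of counted reads without the most abundant gene, 0.220% in the column ignoring strand and 0.0333% of all reads. The counts of the 6 members were the same in the column ignoring strand. The order of the cluster shares and the direction of the cluster and partner ratios were the same in each library. With 2 libraries, leaving out 1 shows no more than that. The ratios moved by less than 1 SD under the pseudocounts of 0.1 and 5 counts, the farthest being Mir181a-1 over Mir181b-1 at 5.89 with 5 counts, against 6.67. The column ignoring strand cannot move them, and with 2 libraries leaving out 1 moves a mean by less than 1 SD by construction, so neither bears on their stability. Under total-count scaling the ratios of replicate 2 over replicate 1 moved to −0.32 for Mir181a-1, −0.079 for Mir181b-2, −0.15 for Mir181c and −0.36 for Mir181d. Past 1.2-fold were then 3 of 5 members and 121 of 261 genes. That scaling lowers all ratios alike. With a minimum mean of 1 CPM, 2 members, 191 genes past 1.2-fold and 31 genes past 2-fold were found, and with 100 CPM the counts were 0, 57 and 2, against 1, 106 and 14 at 10 CPM, as fewer or more genes enter. How many genes entered at those other minimums is not given here, so these counts cannot be read as shares. The median ratio of neighbouring pairs was 2.16 with at least 100 summed counts and 2.25 in the column ignoring strand. A replicate block between groups could not be fitted, as there is 1 group, while ratios within a library are paired by their construction. Reads that align to several loci limit the counts of Mir181a-1, Mir181a-2, Mir181b-1 and Mir181b-2, and 3 counts in replicate 2 limit every value of Mir181b-1.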
